A study of Mus musculus with 6 samples.

Results

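The genes described here encode enzymes that add methyl groups to H3K36, or remove them. They are 7 methyltransferase genes (Setd2, Nsd1, Whsc1, Whsc1l1, Ash1l, Setmar and Smyd2) and 3 demethylase genes (Kdm2a, Kdm2b and Kdm4a), taken by symbol from a table of 17904 named genes. All 10 were found and all 10 reached 1 FPKM, a fragment count divided by transcript length and library size, in at least 1 library. RefSeq now lists Whsc1 as Nsd2 and Whsc1l1 as Nsd3. The 6 RNA libraries, 1 for each genotype at each time, came from macrophages grown out of mouse bone marrow. The mice were C57BL/6, 8 weeks old, and the cells had 5 days in M-CSF, the growth factor that drives macrophage differentiation. The wild type (WT) groups and the groups labelled as Setd2 knockout (KO) were collected at 0 h without lipopolysaccharide (LPS, an outer membrane glycolipid of bacteria), or after 12 or 24 h with LPS at 100 ng/ml. The WT and KO samples carry the same strain, age and culture labels. The labels do not describe the Setd2 allele, how it was deleted, or whether cultures shared an animal. With 1 library per group there is no replicate error, and every difference below is between single libraries.

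Methylation of lysine residues on histone tails is written by SET domain enzymes and erased by demethylases, many of the JmjC class. Setd2 travels with elongating RNA polymerase II and is the main enzyme for trimethylated H3K36 over the bodies of transcribed genes. The NSD family (Nsd1, Whsc1 and Whsc1l1) and Ash1l make the lower methylation states, which lie more broadly between and within genes. Kdm2a and Kdm2b remove mainly the dimethyl mark and bind CpG islands through a CXXC zinc finger, and Kdm4a removes trimethyl groups at H3K9 and H3K36. Setmar and Smyd2 were reported to methylate H3K36, and Smyd2 also methylates non-histone proteins such as p53. The mark is read by PWWP, Tudor and chromodomain proteins that act in DNA methylation, splicing, mismatch repair and the control of cryptic transcription.

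The libraries were alike in depth, at an estimated 21730000 to 22620000 mapped reads, an estimate that assumes reads of 50 nt. FPKM totals ran from 459001 to 582083. The 7 macrophage markers were Cd68, Adgre1, Csf1r, Itgam, Fcgr1, Cd14 and Mertk. Their summed FPKM was 2454, 4046 and 4492 in WT at 0, 12 and 24 h, and 2406, 3258.5 and 3643 in KO. The 4 neutrophil markers summed to 71.2 to 79.5 in WT and to at most 63.7 in KO. Whether these marker differences bear on any KO against WT difference below was not tested. The other markers were low: the 3 fibroblast markers summed to 5.72 to 11.3, the 4 B cell markers to 0.63 to 3.52 and the 3 dendritic cell markers to 1.29 to 2.42. T cell, erythroid and mast cell markers summed to at most 0.96 each. In bulk RNA, a change in the cells present and a change in RNA per cell cannot be told apart.

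Setd2 (gene ID 235626; GRCm38 chromosome 9, 110532500 to 110618633) was the gene named by the knockout label. It stood at 7.83, 8.68 and 7.51 FPKM in WT at 0, 12 and 24 h, and at 9.96, 9.16 and 5.11 FPKM in the libraries labelled KO. The KO value was the higher at 0 h and 12 h and the lower at 24 h, so the labels find no check in this gene. A gene-level value keeps the reads of a transcript that has lost only some exons. Each direction of KO against WT below therefore rests on the labels. Setd2 ranked from 5th to 8th of the 10 genes in level and lay between the percentiles 42.2 and 53.3 of measured genes. Its highest level was 1.95 times its lowest over the 6 libraries. As deposited this was the narrowest range of the 10, but that of Whsc1l1 was almost the same. With the trend over transcript length removed (below), the ratio for Setd2 was 1.44. It was then no longer the narrowest, since Nsd1 had a ratio of 1.18.

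The NSD family held the most abundant of the H3K36 methyltransferase transcripts after LPS. Whsc1l1 (gene ID 234135; chromosome 8, 25601601 to 25719667) measured 14.3, 23.8 and 19.9 FPKM in WT at 0, 12 and 24 h, and 18.3, 28.0 and 15.1 FPKM in KO. It was the highest of the 10 genes in each of the 4 libraries with LPS. The table lists 4 transcripts for it. Short forms of this gene are known that lack the SET domain, and the gene-level value does not separate them. Whsc1 has 3 listed transcripts, and Kdm2b, Kdm4a and Setmar have 2 each, which are not separated either. Whsc1 (gene ID 107823; chromosome 5, 33820676 to 33897966) measured 21.9, 10.3 and 6.66 FPKM in WT and 32.0, 6.88 and 5.24 FPKM in KO. It was among the top 2 genes in both libraries without LPS and ranked 5th to 7th in those with LPS. Nsd1 (gene ID 18193; chromosome 13, 55209782 to 55318325) measured 7.97, 11.8 and 9.09 FPKM in WT and 12.4, 12.8 and 6.33 FPKM in KO. As deposited, Whsc1 was highest before LPS and its paralogs Whsc1l1 and Nsd1 at 12 h in both genotypes. For Nsd1 this order did not hold with the length trend removed, where it measured 10.6, 9.47 and 9.83 FPKM in WT and 10.2, 9.41 and 8.98 FPKM in KO, highest at 0 h in both.

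Ash1l (gene ID 192195; chromosome 3, 88950414 to 89079375), a Trithorax group enzyme, was low throughout. It measured 3.37, 5.79 and 3.87 FPKM in WT and 5.76, 5.67 and 1.94 FPKM in KO. Setmar (gene ID 74729; chromosome 6, 108065045 to 108077127), which in primates is fused to a transposase, was the lowest of the 10 in every library. It measured 1.82, 1.24 and 1.48 FPKM in WT and 1.09, 0.97 and 0.89 FPKM in KO, from an estimated 31 to 62 reads. Smyd2 (gene ID 226830; chromosome 1, 189880492 to 189922495) measured 29.9, 8.11 and 9.76 FPKM in WT and 28.0, 7.52 and 10.4 FPKM in KO. The genotypes lay close together at each time for this gene, and all 4 libraries with LPS were below both without.

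Among the demethylases, Kdm2a (gene ID 225876; chromosome 19, 4316144 to 4398721) measured 10.7, 21.4 and 19.0 FPKM in WT at 0, 12 and 24 h and 16.1, 22.3 and 12.4 FPKM in KO. Kdm4a (gene ID 230674; chromosome 4, 118136957 to 118180090) measured 14.1, 20.9 and 18.0 FPKM in WT and 16.5, 22.3 and 11.1 FPKM in KO. Both were highest at 12 h in both genotypes, and lowest in the KO 24 h library except that Kdm2a was lower still in WT at 0 h. Kdm2b (gene ID 30841; chromosome 5, 122870664 to 122989270), which also brings a Polycomb complex to CpG islands, measured 13.4, 4.30 and 5.14 FPKM in WT and 15.5, 3.45 and 3.25 FPKM in KO. Beside its paralog Kdm2a, it was the higher of the pair at 0 h in WT and nearly level in KO, and with LPS it was far below Kdm2a in all 4 libraries.

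**Figure D1:**
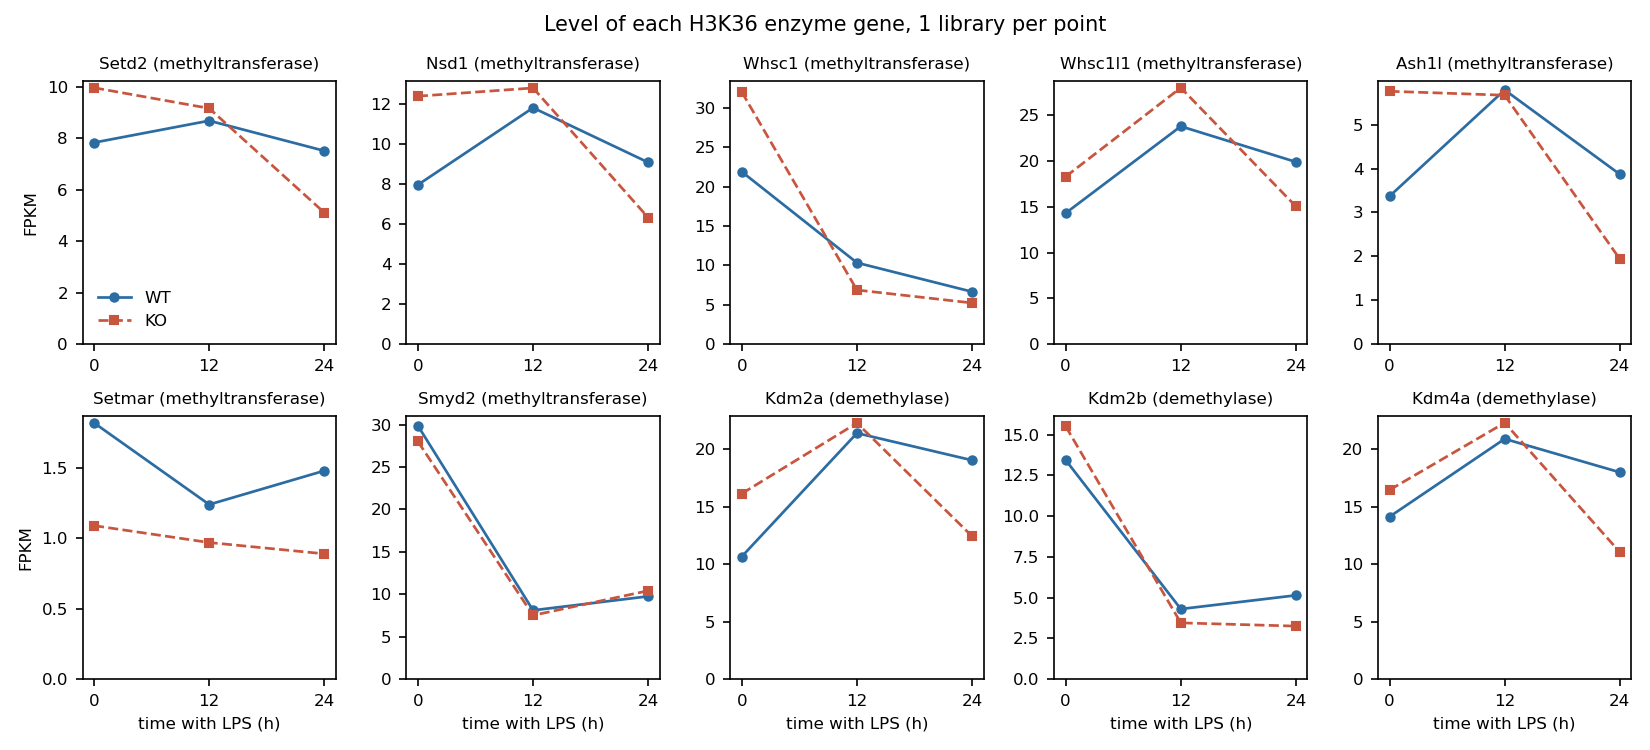
FPKM (y axis, from 0, scaled per gene) against time with LPS in hours for the 10 genes, with WT as circles and solid lines and KO as squares and dashed lines; each point is 1 library. Whsc1, Smyd2 and Kdm2b are highest at 0 h in both genotypes, while Whsc1l1, Kdm2a and Kdm4a peak at 12 h in both.

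The order of levels changed with LPS. Without LPS, Smyd2 and Whsc1 led in both genotypes, and Setmar, Ash1l and Setd2 were the lowest. After 24 h the order in WT was Whsc1l1, Kdm2a, Kdm4a, Smyd2, Nsd1, Setd2, Whsc1, Kdm2b, Ash1l and Setmar, and KO differed only in that Whsc1 stood above Setd2. No spread over replicates exists to separate neighbours in this order, such as Whsc1 (5.24 FPKM) and Setd2 (5.11 FPKM) in KO at 24 h. The 7 methyltransferases summed to 87.1, 69.8 and 58.3 FPKM in WT at 0, 12 and 24 h, and to 108, 71.0 and 45.0 FPKM in KO. For the 3 demethylases the sums were 38.2, 46.6 and 42.2 FPKM in WT and 48.1, 48.1 and 26.7 FPKM in KO. The methyltransferase sum was lower at each LPS time than at 0 h in both genotypes. Whsc1 and Smyd2 made up most of the sum at 0 h. As deposited, the demethylase sum was higher with LPS in WT, nearly equal at 0 h and 12 h in KO, and lower at 24 h in KO. With the length trend removed it was 42.8, 41.5 and 43.4 FPKM in WT, with 12 h below 0 h, and 44.2, 41.6 and 32.4 FPKM in KO. The methyltransferase sum was then 95.9, 61.5 and 60.2 FPKM in WT and 99.6, 60.5 and 53.3 FPKM in KO, lower with LPS as before.

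The LPS response was asked of each genotype separately, as the difference of log2(FPKM + 1) from the 0 h library of the same genotype; a size of 1, a 2-fold change, was needed for a call. Whsc1, Smyd2 and Kdm2b were called lower at 12 h and 24 h in WT and in KO, 4 comparisons of 4. The other 7 genes had no call in WT. In KO, Ash1l was called lower at 24 h as well. No gene of the 10 was called higher. These counts have to be read against the whole table. Of all measured genes, 17.4% were called lower at 12 h in WT and 9.64% higher. At 24 h in WT the shares were 13.9% and 7.65%. In KO, 17.5% were called lower and 8.63% higher at 12 h, and 21.6% and 7.55% at 24 h. The members' 3 or 4 lower calls of 10 are above those shares, but no test of the set was made and nothing is read from it.

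Smyd2 was lower by 1.76 on the log2 scale at 12 h in WT (log2 difference -1.76, 95% counting interval -1.93 to -1.59) and its KO difference was -1.77 (-1.94 to -1.59). At 24 h its differences were -1.52 in WT and -1.35 in KO. These intervals cover counting error only and rest on the depth estimate. Whsc1 differed by -1.01 at 12 h and -1.58 at 24 h in WT, and by -2.07 and -2.40 in KO. Its response was larger in KO at both times, by -1.05 at 12 h and -0.82 at 24 h. With the trend over transcript length removed (described below), these values were -0.70 and -0.21. As deposited, the median of its length class at 24 h was -0.60. Kdm2b differed by -1.45 and -1.23 in WT and by -1.89 and -1.96 in KO. For these 3 genes all 4 libraries with LPS lay below both without, which held for 43.2% of measured genes. The reverse order, all 4 above, held for 12.7% of genes and for none of the 10.

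Kdm2a, Whsc1l1 and Kdm4a were higher at 12 h in both genotypes without reaching 2-fold. Kdm2a differed by 0.94 in WT and 0.44 in KO, Whsc1l1 by 0.69 and 0.59, and Kdm4a by 0.53 and 0.42. The counting intervals of all 6 values excluded 0. At 24 h the 3 genes stayed above 0 h in WT (0.78, 0.45 and 0.33) and were below it in KO (-0.35, -0.27 and -0.53). Nsd1 and Ash1l differed by 0.52 and 0.64 at 12 h in WT and by 0.04 and -0.02 in KO. At 24 h they were at 0.17 and 0.16 in WT and at -0.87 and -1.20 in KO. Setd2 itself differed by 0.13 and -0.05 in WT, and by -0.11 and -0.84 in KO. The counting intervals of Setmar's 4 responses all included 0. LPS differences also ran with transcript length, with Spearman's rho across genes of 0.33 at 12 h and 0.17 at 24 h in WT, and of 0.07 at 12 h and -0.38 at 24 h in KO. With the trend over length removed (described below), Whsc1, Smyd2 and Kdm2b kept all 4 calls each and Ash1l lost its call (-0.66). Kdm2a stayed above 0 in all 4 comparisons (0.48, 0.59, 0.34 and 0.15), and so did Whsc1l1 (0.37, 0.31, 0.51 and 0.09). At 12 h in WT, Nsd1 turned from 0.52 to -0.15 and Setd2 from 0.13 to -0.36.

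**Figure D2:**
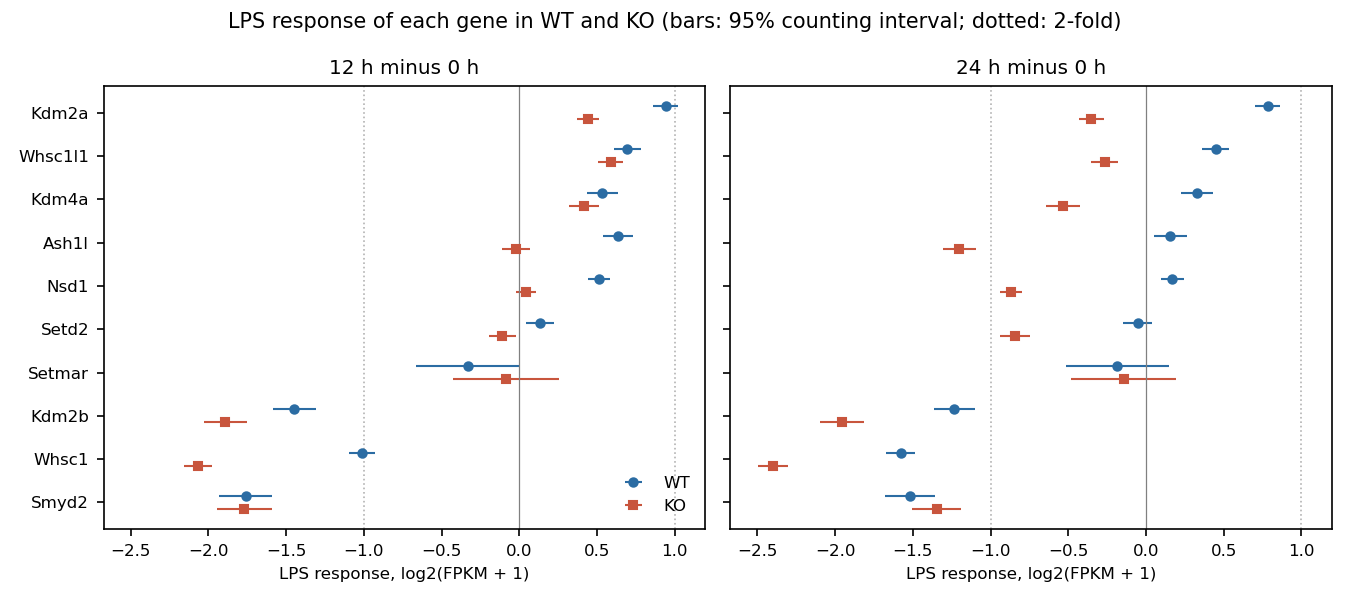
Difference of log2(FPKM + 1) between each LPS time and 0 h (x axis) for the 10 genes, WT as circles and KO as squares; bars are 95% counting intervals from the estimated reads, and dotted lines mark 2-fold. Smyd2, Whsc1 and Kdm2b lie beyond the lower line in both genotypes at both times, and at 24 h the KO points of Kdm2a, Whsc1l1 and Kdm4a lie left of 0 while those of WT lie right of it.

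Between the 2 LPS times, no member was called in WT, where 1.82% of genes were called higher and 3.79% lower; differences ran from -0.57 (Whsc1) to 0.24 (Smyd2). In KO, Ash1l was called lower (-1.18), as were 7.67% of genes, while 4.78% were called higher. There Kdm4a (-0.95), Nsd1 (-0.91), Whsc1l1 (-0.85), Kdm2a (-0.79) and Setd2 (-0.73) were also lower at 24 h than at 12 h, whereas Smyd2 was higher by 0.42. This comparison ran with length across genes (rho -0.58). With the trend removed, Ash1l was at -0.51 and its call was lost, and Kdm4a was at -0.63, Whsc1l1 at -0.42, Kdm2a at -0.19, Setd2 at -0.11 and Nsd1 at -0.06.

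The median over the 10 genes in WT was 0.32 at 12 h and 0.05 at 24 h, beside -0.28 and -0.25 over all measured genes. In KO it was -0.05 and -0.86, beside -0.36 and -0.39. With the length trend removed the medians over the 10 genes were -0.17 and -0.11 in WT, below 0, and -0.13 and -0.30 in KO. Over all measured genes they were then -0.31 and -0.24 in WT and -0.36 and -0.35 in KO, each lower than that of the 10 genes. The zero of these comparisons depends on the scaling. Median-of-ratios factors shifted the median gene (mean level 5 FPKM or more) by over 0.1, from -0.27 to -0.01 at 12 h and from -0.24 to 0.00 at 24 h in WT, and from -0.34 to -0.01 and from -0.33 to -0.01 in KO. The medians over the 10 genes then became 0.58, 0.27, 0.24 and -0.55. Under that scaling Kdm2a was called higher in WT at 12 h (1.20) and 24 h (1.02), Whsc1 (-0.74 at 12 h) and Kdm2b (-0.99 at 24 h) missed the call in WT, and Setd2 in KO at 12 h turned from -0.11 to 0.21. Smyd2 kept its call in all 4 comparisons (-1.49, -1.27, -1.44 and -1.02).

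A limma model with additive genotype and time terms, whose error is the departure from additivity and not a spread between replicates, called the same 3 genes. With Benjamini-Hochberg adjustment over 11547 genes, Smyd2 had an adjusted p of 0.000711 at 12 h and 0.00168 at 24 h, lower in 4 of 4 libraries with LPS. Kdm2b had an adjusted p of 0.00234 and 0.0031, and Whsc1 of 0.00607 and 0.0025, both from limma and both lower in 4 of 4 libraries. The other 7 genes did not pass 0.05 at either time; the nearest was Whsc1l1 at 12 h (limma, log2 difference 0.64, adjusted p 0.0614). On values with the length trend removed, Whsc1l1 at 12 h passed in limma (log2 difference 0.44, adjusted p 0.0487, higher in both genotypes), the 1 member called higher. On the deposited values the fit called 30.5% of all genes lower and 11.8% higher at 12 h, and 25.2% and 9.29% at 24 h. With the length trend removed it called 4460 of the 11547 genes lower and 1579 higher at 12 h, and 3837 and 1353 at 24 h.

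RefSeq promoter windows (GRCm38.p6) were matched for 5 of the 10 genes, and not for Nsd1, Whsc1, Whsc1l1, Ash1l and Kdm2a. The 250 bases before a RefSeq transcript start of Smyd2 and Kdm2b are shown because both were called lower with LPS, beside those of Kdm4a, with values above 0 at 12 h, and of Setd2. Capitals mark GC boxes (GGGCGG) and CCAAT boxes (CCAAT) on either strand. The windows are at chr1:189922292-189922541 (minus strand), chr5:122900351-122900600 (minus strand), chr4:118180044-118180293 (minus strand) and chr9:110532347-110532596 (plus strand). Kdm2b has 4 windows, of which an internal start (above) and the outermost, at chr5:122989100-122989349 (minus strand), are shown. The listed starts are not the outer ends of the gene spans given above, so 204 bases of the Smyd2 window, 97 of the Setd2 window, 47 of the Kdm4a window, 171 of the outermost and 250 of the internal Kdm2b window lie inside those spans.
Smyd2: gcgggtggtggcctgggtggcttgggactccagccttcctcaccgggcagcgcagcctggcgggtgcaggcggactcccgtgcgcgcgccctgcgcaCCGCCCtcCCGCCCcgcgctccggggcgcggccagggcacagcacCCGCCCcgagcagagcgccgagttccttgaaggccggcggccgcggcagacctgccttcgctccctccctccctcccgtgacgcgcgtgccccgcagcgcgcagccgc
Kdm2b, internal start: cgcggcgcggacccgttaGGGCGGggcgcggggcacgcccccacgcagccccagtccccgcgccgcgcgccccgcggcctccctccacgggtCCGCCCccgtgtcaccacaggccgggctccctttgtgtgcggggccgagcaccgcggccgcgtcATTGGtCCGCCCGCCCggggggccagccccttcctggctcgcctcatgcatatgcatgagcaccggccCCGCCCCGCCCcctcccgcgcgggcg
Kdm2b, outermost start: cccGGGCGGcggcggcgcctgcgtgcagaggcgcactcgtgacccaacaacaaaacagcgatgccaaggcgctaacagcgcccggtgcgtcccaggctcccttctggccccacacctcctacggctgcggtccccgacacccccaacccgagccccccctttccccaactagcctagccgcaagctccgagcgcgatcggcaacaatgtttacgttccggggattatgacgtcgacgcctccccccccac
Kdm4a: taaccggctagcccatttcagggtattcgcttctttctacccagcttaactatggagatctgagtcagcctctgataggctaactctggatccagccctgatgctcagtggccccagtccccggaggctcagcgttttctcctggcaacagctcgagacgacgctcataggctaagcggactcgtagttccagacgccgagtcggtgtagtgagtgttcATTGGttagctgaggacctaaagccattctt
Setd2: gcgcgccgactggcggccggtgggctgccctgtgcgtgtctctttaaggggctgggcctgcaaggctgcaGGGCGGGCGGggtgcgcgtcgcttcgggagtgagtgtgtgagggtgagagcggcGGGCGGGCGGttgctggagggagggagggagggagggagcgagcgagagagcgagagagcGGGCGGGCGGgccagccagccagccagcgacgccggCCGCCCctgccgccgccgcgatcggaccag
The Smyd2 window held 34 CpG dinucleotides and 3 GC boxes, and the internal Kdm2b window 38 CpG dinucleotides, 6 GC boxes and 1 CCAAT box. The outermost Kdm2b window held 27 CpG dinucleotides and 1 GC box. Of the Kdm2b windows not printed, 1 held 36 CpG dinucleotides and 5 GC boxes, and the other, at chr5:122988508-122988757, held 12 CpG dinucleotides and no GC box, the same counts as Kdm4a. That of Kdm4a held 12 CpG dinucleotides, no GC box and 1 CCAAT box. The Setd2 window held 31 CpG dinucleotides and 7 GC boxes. The median over 32851 windows of this length was 6 CpG dinucleotides, and 32.7% held a GC box and 33.8% a CCAAT box. The E box CACGTG (6.02% of windows), the TATA box TATAAA (12.4%) and the cAMP response element TGACGTCA (1.55%) were not in the window of any member, Setmar and the other Kdm2b starts included. A match describes these letters only.

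KO against WT at each time, the contrast the labels set up, gave no call for any of the 10 genes. The shares of all measured genes called were 2.96% higher and 1.26% lower at 0 h, 1.32% and 0.727% at 12 h, and 2.22% and 1.93% at 24 h. At 0 h the 10 differences lay between -0.43 and 0.63, and 8 were above 0. At 12 h they lay between -0.53 and 0.23 and split evenly, 5 above and 5 below 0. At 24 h they lay between -0.73 and 0.09, and 9 were below 0. Medians over the genes were 0.32, 0.01 and -0.47, beside 0.02, -0.06 and -0.12 over all measured genes. In the limma model no member passed between genotypes, with adjusted p from 0.596 (Setmar) to 0.996 (Kdm2a); 0 members had an unadjusted p under 0.05, and 2 genes of the whole table (0.0173%) were called.

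A looser rule of 1.5-fold was also applied. For KO against WT it called Ash1l higher at 0 h, and Ash1l and Kdm4a lower at 24 h, with 0 members at 12 h. The shares of all genes were 9.46% higher and 7.79% lower at 0 h, 4.28% and 3.74% at 12 h, and 6.06% and 10.8% at 24 h. For LPS in WT it added Kdm2a, Whsc1l1 and Ash1l as higher at 12 h (15.7% of genes higher, 34.2% lower) and Kdm2a at 24 h (12.6% and 28.3%). In KO it added Whsc1l1 as higher at 12 h (13.2% and 36.3%), and gave 6 members lower at 24 h (13.1% and 40.0%). From 12 to 24 h it called 0 members in WT (7.95% and 10.1%) and 6 lower in KO (14.2% and 19.8%). For the difference of responses it called 8 lower at 24 h (13.6% and 23.5%) and 2 lower at 12 h (7.12% and 12.2%).

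The 10 transcripts are long, and the differences between these libraries ran with length. Their median length was 5754 nt, against 2720 nt over measured genes, and 7 of 10 exceeded 4000 nt, as did 26.2% of measured genes. The longest was that of Nsd1 at 12784 nt, followed by Ash1l (11268 nt), Setd2 (8350 nt) and Kdm2a (7242 nt). Setmar (1612 nt) and Smyd2 (1680 nt) were the shortest. At 0 h the 2 short genes were the 2 with differences below 0, Smyd2 at -0.09 and Setmar at -0.43. Ash1l (0.63), Nsd1 (0.58), Kdm2a (0.56) and Whsc1 (0.53) had the largest differences. Across the 10 genes, Spearman's rho between difference and length was 0.90 at 0 h, 0.36 at 12 h and -0.36 at 24 h. Across genes averaging 5 FPKM or more it was 0.60, 0.13 and -0.44. The points of each rho share 1 pair of libraries, so it describes that pair.

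**Figure D3:**
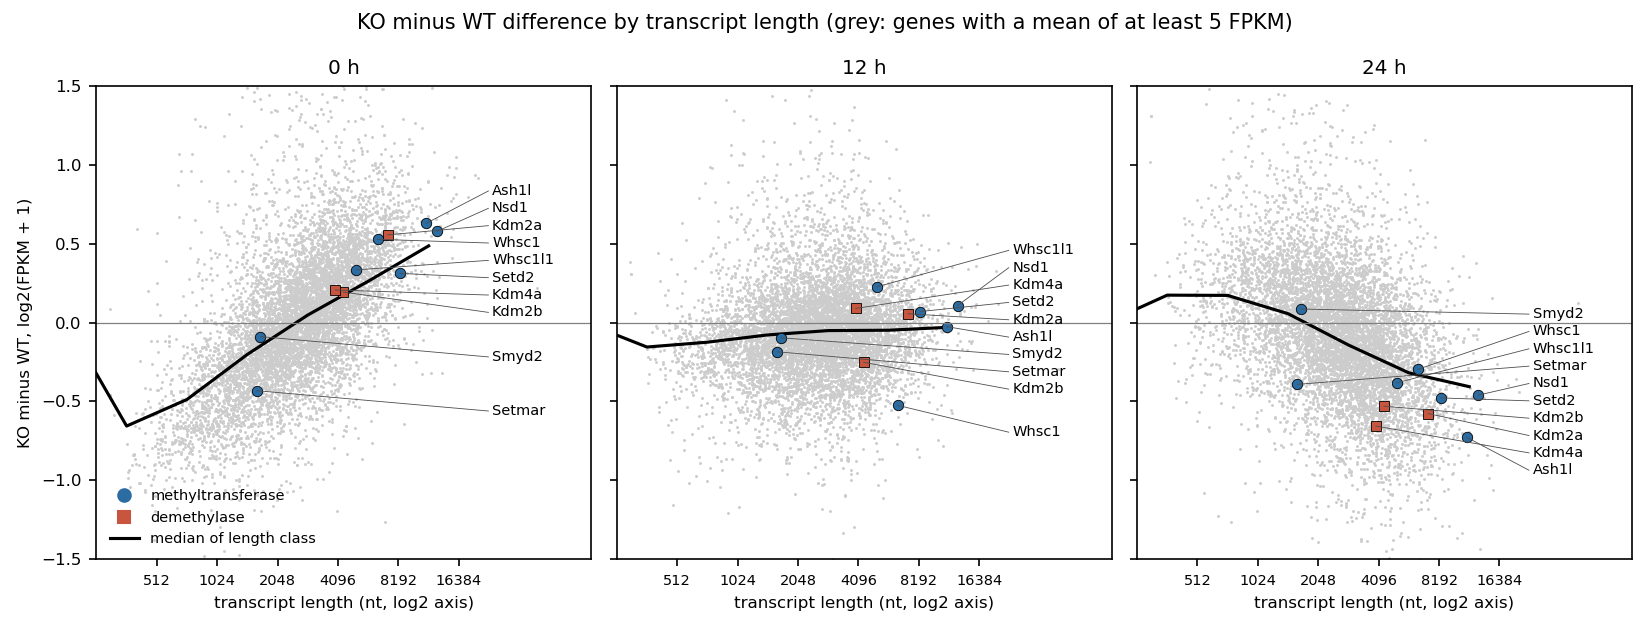
KO minus WT difference of log2(FPKM + 1) (y axis) against transcript length in nt (log2 axis) at 0, 12 and 24 h; circles are methyltransferases, squares demethylases, grey points all genes averaging 5 FPKM or more (those beyond 1.5 are outside the axis), and the line joins the medians of length classes. The members follow the rising line at 0 h, and at 24 h Smyd2 is the 1 member above 0.

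Each gene was next set beside genes of its own length. The 327 measured genes of 8192 to 16384 nt had medians of 0.49, -0.03 and -0.41 at 0, 12 and 24 h. Relative to these, Setd2 was at -0.17, 0.10 and -0.07, Nsd1 at 0.09, 0.14 and -0.05, and Ash1l at 0.14, 0.00 and -0.32. The 2525 genes of 4096 to 8192 nt had medians of 0.26, -0.05 and -0.32. Relative to them, Whsc1 was at 0.27, -0.48 and 0.02, Whsc1l1 at 0.07, 0.27 and -0.06, Kdm2a at 0.29, 0.10 and -0.26, and Kdm2b at -0.07, -0.20 and -0.21. Kdm4a (3971 nt), in the class below, was at 0.16, 0.14 and -0.51. The 2725 genes of 1024 to 2048 nt had medians of -0.20, -0.08 and 0.06, relative to which Setmar was at -0.23, -0.11 and -0.45 and Smyd2 at 0.11, -0.02 and 0.03. Setd2 and Nsd1 differed from the median of their length class by at most 0.17 in size at all 3 times, and Kdm4a at 24 h, Whsc1 at 12 h and Setmar at 24 h were the farthest from theirs.

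With a lowess trend over length removed from each library, the medians of the 10 genes became 0.04, -0.04 and -0.26, beside 0.00, -0.05 and -0.09 over all measured genes. All 10 differences at 0 h were smaller in size than as deposited, and ranged from -0.32 to 0.14. Setd2 turned from 0.31 to -0.14 at 0 h, Nsd1 from 0.58 to -0.04 and Kdm2b from 0.19 to -0.02. Smyd2 turned from -0.09 to 0.08. At 24 h all 10 lay below 0, from -0.50 to -0.02. Kdm4a kept -0.50 of its -0.66, Ash1l -0.48 of its -0.73, Setmar was at -0.45 and Kdm2b at -0.37, while Nsd1 (-0.12) and Whsc1 (-0.06) came close to 0. The trend was not removed in full there, since genes of 8192 to 16384 nt still had a median of -0.19. Whsc1 at 12 h was -0.53 as deposited and -0.56 without the trend, with a counting interval of -0.63 to -0.42. This was the largest difference of the 10 genes at 12 h under both treatments.

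**Figure D4:**
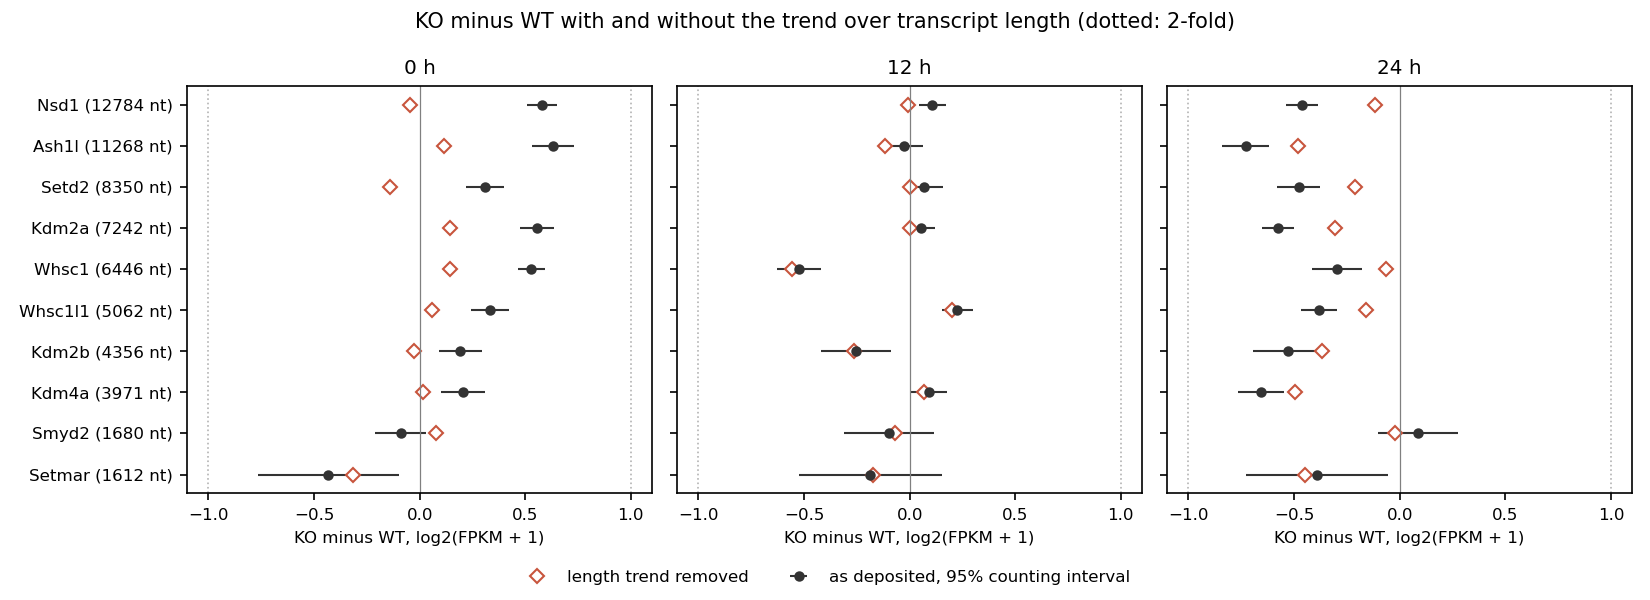
KO minus WT difference of log2(FPKM + 1) (x axis) for the 10 genes ordered by transcript length (y axis) at 0, 12 and 24 h; filled circles with 95% counting intervals are the deposited values, open diamonds the values with the length trend removed, and dotted lines mark 2-fold. The diamonds lie nearer to 0 than the circles for all genes at 0 h and for 9 of 10 at 24 h, and close to the circles at 12 h.

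Setmar was the 1 gene whose 3 KO libraries (0.89 to 1.09 FPKM) lay below all 3 WT libraries (1.24 to 1.82 FPKM). Such an order held for 0.987% of measured genes, and the reverse for 1%. The differences were -0.43, -0.19 and -0.39, and -0.32, -0.17 and -0.45 without the length trend. With 31 to 62 estimated reads, the interval at 12 h (-0.53 to 0.15) included 0, and those at 0 h (-0.77 to -0.10) and 24 h (-0.73 to -0.06) came near it. As deposited, the differences of the other 9 genes changed sign between times. Without the length trend, Nsd1 (-0.12 to -0.01) and Kdm2b (-0.37 to -0.02) were also below 0 at all 3 times.

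The responses to LPS differed in direction between genotypes for some genes at 24 h. The difference of the responses (KO minus WT) was called for Ash1l (-1.36), Kdm2a (-1.13) and Nsd1 (-1.04), where 8.63% of measured genes were called lower and 4.04% higher. Without the length trend these were -0.60, -0.45 and -0.07, and no call was left. Whsc1 was called for the difference of the 12 h responses (-1.05), where 3.14% of genes were called lower and 1.65% higher. It stood at -0.70 without the trend, and the call was also lost under median-of-ratios scaling. These comparisons share their 0 h libraries.

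Genes outside the set were compared as lists, described by counts and medians. Of 8 further genes linked to H3K36, 7 were measured, and Kdm4d was not. The demethylase gene Kdm4b, a paralog of Kdm4a, measured 4.53, 9.32 and 11.6 FPKM in WT and 4.93, 7.87 and 7.04 FPKM in KO, and was called higher at 24 h in WT (1.19). Riox1, listed as 2410016O06Rik and reported to act on H3K36, was called lower at both times in WT (-1.41 and -1.22) and KO (-1.61 and -1.44). Setd5 was called lower in KO between 12 and 24 h (-1.07), and -0.51 without the length trend. No gene of this list was called between genotypes at any time; its medians were 0.06, -0.12 and -0.28.

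Several readers of the mark were called lower with LPS. Of 16 measured readers, 5 were called lower at 12 h and 7 at 24 h in WT, and 7 and 8 in KO, with 0 called higher. Over all measured genes the shares called lower were 17.4% and 13.9% in WT and 17.5% and 21.6% in KO. Under median-of-ratios scaling the readers called lower were 5 and 5 in WT and 5 and 4 in KO. The shares above are of deposited values, and none is given for that scaling. Phf19, a Polycomb partner with a Tudor domain, measured 11.2, 2.35 and 0.67 FPKM in WT and 9.03, 1.38 and 0.45 FPKM in KO. Msh6, the PWWP subunit of the mismatch repair sensor, measured 13.0, 3.51 and 3.60 FPKM in WT and 13.6, 2.12 and 1.97 FPKM in KO. Psip1, the PWWP protein LEDGF, measured 23.9, 5.02 and 5.86 FPKM in WT and 14.9, 4.41 and 4.40 FPKM in KO. For Dnmt3a, a DNA methyltransferase drawn to H3K36 methylation, the values were 15.7, 9.14 and 6.37 FPKM in WT and 30.8, 12.7 and 6.73 FPKM in KO. List medians were -0.61 and -0.62 in WT and -0.77 and -0.91 in KO. None of the 16 was called between genotypes at any time.

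Among 18 elongation partners of Setd2, 1 was called higher and 1 lower with LPS at 12 h in WT, 0 and 2 in KO, and 0 and 1 at 24 h in each genotype. Of all measured genes, 9.64% were called higher and 17.4% lower at 12 h in WT, and 8.63% and 17.5% in KO. At 24 h the shares were 7.65% and 13.9% in WT and 7.55% and 21.6% in KO. At 12 h in WT, 3 partners were called lower without the length trend, as were 15.4% of all genes. Under median-of-ratios scaling 3 partners were called higher, and no share of all genes is given for it. Ssrp1, a subunit of the histone chaperone FACT, was called lower in WT at both times and in KO at 12 h, with 83.7, 28.6 and 37.3 FPKM in WT and 68.2, 25.5 and 35.8 FPKM in KO. Polr2a, the large subunit of RNA polymerase II, measured 29.5, 34.0 and 20.5 FPKM in WT and 60.5, 37.8 and 10.7 FPKM in KO. It was called higher in KO at 0 h (1.01; 0.60 without the length trend) and lower at 24 h against 0 h (-2.40; -1.92 without it). Ccnt1, the cyclin of the elongation kinase P-TEFb, was called higher in KO at 0 h (1.08), and 1.13 without the trend. The list medians for KO against WT were 0.12, -0.07 and -0.10.

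Writers and erasers of other histone residues were compared in the same way. The 19 writers had KO against WT medians of 0.36, 0.11 and -0.38, and 0.05, 0.05 and -0.16 without the trend. The 14 erasers had 0.37, -0.01 and -0.62, and 0.05, -0.04 and -0.42 without it. With LPS, 4 and 3 writers were called lower at 12 h and 24 h in WT and 5 and 9 in KO, with 2 called higher, both at 12 h in WT. Of the erasers, 3 were called higher in each LPS comparison except KO at 24 h, where 2 were higher and 6 lower. Over all measured genes, 9.64% and 7.65% were called higher at 12 h and 24 h in WT, and 8.63% and 7.55% in KO. The shares called lower were 17.4% and 13.9% in WT, and 17.5% at 12 h in KO. Without the length trend, 2 erasers were called higher at 12 h in each genotype. The shares of all genes were then 9.12% in WT and 8.6% in KO. Under median-of-ratios scaling 5 erasers were called higher in WT and 3 in KO. In KO at 24 h, 21.6% of all measured genes were called lower as deposited and 18% without the length trend. There 4 writers and 3 erasers were called lower without the length trend, and 4 and 3 under median-of-ratios scaling. No share of all genes is given for median-of-ratios scaling. In KO at 12 h, 2 writers were called lower under that scaling. Between genotypes, 1 writer was called higher in KO at 0 h (2.96% of all genes), and 1 writer and 2 erasers lower at 24 h (1.93%). Those lower at 24 h were Setd7 (-1.08), Kdm3b (-1.07) and Kdm6b (below), and without the length trend these calls were lost. The H3K79 enzyme gene Dot1l was the 1 called higher in KO at 0 h. It went from 13.0 FPKM (WT) to 38.0 FPKM (KO), a difference of 1.48, or 1.08 without the trend. With LPS, Ezh2, the H3K27 methyltransferase of Polycomb, was called lower at 12 h and 24 h in both genotypes, with 25.2 FPKM at 0 h and 4.62 FPKM at 12 h in WT, and 18.8, 3.95 and 2.51 FPKM in KO. The H3K9 enzyme Suv39h1 was also called lower in all 4 comparisons, with 6.76 and 3.76 FPKM at the LPS times in WT, and 20.3, 5.40 and 2.67 FPKM in KO. The erasers Kdm6b, Kdm7a and Kdm5b were called higher at 12 h in both genotypes. Without the length trend, Kdm5b was at 0.82 in WT and 0.95 in KO and lost both calls. Kdm6b, the H3K27 demethylase JMJD3, measured 0.66, 11.3 and 7.75 FPKM in WT and 1.21, 12.2 and 2.85 FPKM in KO. Its level in KO at 24 h was lower by 1.18 on the log2 scale (-1.18, and -0.98 without the trend). No member of the H3K36 set had an LPS response as large as that of Kdm6b at 12 h in WT (2.89).

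Profiles over the 6 libraries were compared on deposited values with the length trend kept, and no comparison without it is given. The measure was the root mean square difference of log2 profiles centred on their mean. The genes most like Setd2 were sought among 7676 genes averaging 5 FPKM or more. They were Ccnt2 (0.028), Scaf8 (0.029), Ireb2 (0.040), Eif4g3 (0.044) and Sf3b1 (0.046), all with transcripts of 4866 to 6804 nt. Whsc1 had the widest range of the 10 genes, its highest level being 6.10 times its lowest. Its nearest profiles were those of Dnmt1 (0.0998), Lonrf3 (0.126), Mef2a (0.158), Nup155 (0.165) and Tfdp1 (0.169). Dnmt1, the maintenance DNA methyltransferase, measured 60.2, 27.4 and 17.7 FPKM in WT and 81.9, 22.2 and 14.0 FPKM in KO. Among the 10 genes, the closest pairs were Whsc1l1 with Kdm2a (0.111) and Nsd1 with Ash1l (0.125). The first pair joins a methyltransferase with a demethylase gene, and the second joins the 2 longest transcripts.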

How the data were processed

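Bulk RNA was sequenced in 6 libraries on the BGISEQ-500 platform, per the labels' protocols. The deposited values are gene-level FPKM from the authors' own pipeline, per the file headers; the submitters' processing notes name Bowtie2, RSEM and GRCm38 without versions. Of 17905 rows, 1 names no gene and was left out. Date-like symbols (25) were restored from gene IDs, and 2 cells of the KO 0 h column that are not numbers were read as missing. Differences are of log2(FPKM + 1). Genes reaching 1 FPKM in at least 1 library (11549) counted as measured, and a size of 1 was a call. Transcript lengths came from GENCODE M21. Depth was estimated from the spacing of low FPKM values, which are near multiples of 1 read; the 95% counting intervals rest on it and on an assumed read length of 50. The length trend was a lowess curve (span 0.3) fitted on genes averaging 10 FPKM or more. limma 3.58.1 (R 4.3.3) was run with a trend and robust empirical Bayes, with 2 residual degrees of freedom per gene before moderation. The scripts were tested on simulated data. Members and lists were chosen with earlier results of these data known. Named genes were the 10 members, the called genes and up to 3 most different genes of each list, and the 5 profiles most like Setd2 and the widest-ranging member. Alternatives were other pseudocounts, minimum levels, fold rules and scalings, the length trend, limma and leaving out a time. Scaling each library to a total of 1000000 and the order of libraries with and without LPS were added after seeing the data. Promoter windows of chromosome 18 were left out of the motif shares.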

Additional observations from a re-analysis of the deposited data

Results flagged for a closer look

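The responses to LPS had opposite signs in WT and KO, each with a counting interval that excluded 0, for 6 pairs of gene and time. None of these differences was tested, since each group held 1 library. The share of all measured genes with opposite signs is not given, so the count is not read as a trait of the members. Measured genes of 8192 to 16384 nt had a median 24 h response of -0.03 in WT and -0.95 in KO. At 24 h, Ash1l was at 0.16 in WT and -1.20 in KO, a difference of the responses of -1.36. Kdm2a was at 0.78 and -0.35 (-1.13), Nsd1 at 0.17 and -0.87 (-1.04), Kdm4a at 0.33 and -0.53 (-0.86) and Whsc1l1 at 0.45 and -0.27 (-0.72). At 12 h, Setd2 was at 0.13 and -0.11 (-0.24). Without the length trend the differences were -0.60, -0.45, -0.07, -0.51, -0.22 and 0.14 in the same order. Opposite signs then remained for Kdm4a alone (0.25 in WT and -0.26 in KO). Under median-of-ratios scaling with the length trend kept, Whsc1l1 at 24 h was at 0.69 in WT and 0.06 in KO. Setd2 at 12 h was at 0.38 and 0.21 under that scaling, so both genes lost the opposite signs. Kdm2a at 24 h stood at 1.02 and -0.03. Ash1l (0.36 and -0.94), Nsd1 (0.40 and -0.56) and Kdm4a (0.57 and -0.22) kept opposite signs at 24 h.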

How the results depend on the processing

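No paired analysis was possible because each group holds 1 library and the groups share only the number 1. The 18 called differences of single genes (of 110) kept their direction under all 6 alternatives of pseudocount, scaling and length; 18 stayed called with a pseudocount of 0.1, 17 with a total of 1000000, 14 with trimmed-mean and 13 with median-of-ratios scaling, 12 without the length trend and 9 with a pseudocount of 5. Counts of called members that moved by over 1.5 times were these. The 1.5-fold rule gave 1 higher at 0 h and 2 lower at 24 h for KO against WT, 3 higher at 12 h and 1 higher at 24 h in WT, 1 higher at 12 h in KO, 6 lower from 12 to 24 h in KO, and 8 and 2 lower for the difference of the 24 h and 12 h responses. Median-of-ratios and trimmed-mean scaling each gave 1 higher at 12 h and at 24 h in WT and 0 for the 12 h difference of responses; a total of 1000000 gave 1 higher at 12 h in WT, 6 lower from 12 to 24 h in KO and 8 lower for the 24 h difference. A pseudocount of 5 gave 1 lower at 12 h in WT and 0 from 12 to 24 h in KO and for both differences of responses, and a pseudocount of 0.1 gave 3 lower from 12 to 24 h in KO. Removing the length trend gave 0 from 12 to 24 h in KO and for both differences of responses. Smaller moves of lower calls included those from 3 to 2 in WT at 12 h and 24 h, from 4 to 3 in KO at 24 h and from 3 to 2 for the 24 h difference under median-of-ratios scaling, from 4 to 3 in KO at 24 h without the length trend, and from 4 to 6 there with a total of 1000000 (Setd2 at -1.21 included). The median over genes of the mean KO against WT difference was -0.04 over the 3 times, -0.27 without the 0 h pair and 0.17 without the 24 h pair. The cause of these moves was not tested. Shares of all genes called under each scaling and pseudocount are not given, so the counts are not read as a trait of the members. With a total of 1000000 the median over genes averaging 5 FPKM or more moved as well. It went from -0.03 to -0.36 for 12 to 24 h in KO, and from -0.09 to -0.36 for the 24 h difference of responses. Depth limits Setmar most.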
